A study of Homo sapiens with 21 samples.

Results

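A set of 9 genes was followed through RNA-seq and R-loop maps of MDA-MB-436 cells. They were the neuropilins NRP1 and NRP2, the secreted protein gene VGF, the neurofilament genes NEFL and NEFM, and UGT8, TRABD2A, NFATC2 and PKIB. The count table holds 26485 genes, so the set is 9 of 26485. The set was chosen by name because mRNA counts of these genes had been seen to be higher with the RNF8 hairpin, so their RNA values are a description and carry no test. NEFM went against that label, with 1 count in all 6 RNA libraries together, and 8 of the 9 genes passed the filter on low counts.

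MDA-MB-436 is an established triple-negative breast cancer line, and the series title places it among BRCA1 mutant cells. The shRNF8 cells carried a Dox-inducible lentiviral hairpin against RNF8, a ubiquitin ligase recruited to DNA breaks, and the shScr cells carried the matching control hairpin. Both groups had the same parental line, vector system and culture medium, and the labels state neither a drug dose nor the days of induction. The labels name a single kind of RNF8 hairpin and no rescue, so effects of the hairpin other than loss of RNF8 cannot be told apart from it. RNA-seq of poly(A) RNA was made from 3 shRNF8 and 3 shScr libraries. DNA-RNA hybrids were pulled down from sonicated chromatin with the S9.6 antibody (DRIP-seq) in 4 shRNF8 and 2 shScr libraries, each with an RNase-treated partner. Nothing in the labels says whether the libraries of a group were separate cultures, so SDs and p-values cover the spread among the libraries, which could be purely technical.

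Neuropilins are single-pass membrane co-receptors that bind class 3 semaphorins together with plexins, and members of the VEGF family together with VEGF receptors. They are best known from axon guidance and vessel growth. VGF is a precursor of neuroendocrine peptides that is induced by nerve growth factor and stored in dense-core granules, and its gene is a classic target of CREB, the factor activated by protein kinase A. The other genes encode neurofilament chains (NEFL, NEFM), the galactosyltransferase that makes the myelin lipid galactosylceramide (UGT8), a membrane protease that inactivates WNT proteins (TRABD2A), a calcium-regulated transcription factor (NFATC2) and an inhibitor of protein kinase A (PKIB). In an R-loop, RNA pairs with 1 DNA strand and displaces the other, often near the starts and ends of active, GC-rich genes.

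The promoter of VGF is shown because it lies inside the R-loop domain described further on, and that of NRP2 because NRP2 had the largest fold change of the set and no S9.6 peak. RefSeq sequences (GRCh38.p14, the build of the deposited files) were found for the promoters of 6 of the 9 genes, NRP2, VGF, UGT8, TRABD2A, NFATC2 and PKIB. The lines give 250 bases before the start nearest to that of the count table, 5′ to 3′ on the gene's strand, at chr7:101165570-101165819 (minus strand) for VGF and at chr2:205682251-205682500 (plus strand) for NRP2. Capitals mark TGACGTCA, the cyclic AMP response element, and CACGTG, an E-box, searched on both strands (both read the same on either).
VGF: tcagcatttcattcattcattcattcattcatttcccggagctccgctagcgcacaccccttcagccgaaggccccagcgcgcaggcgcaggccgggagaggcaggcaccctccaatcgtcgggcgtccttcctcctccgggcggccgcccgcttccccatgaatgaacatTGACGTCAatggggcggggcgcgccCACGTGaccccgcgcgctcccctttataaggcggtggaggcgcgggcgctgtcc
NRP2: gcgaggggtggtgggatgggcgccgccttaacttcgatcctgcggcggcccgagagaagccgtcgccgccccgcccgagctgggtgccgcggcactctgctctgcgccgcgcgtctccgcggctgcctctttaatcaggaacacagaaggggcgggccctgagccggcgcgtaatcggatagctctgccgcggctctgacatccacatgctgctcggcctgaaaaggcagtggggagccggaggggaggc
The VGF promoter held TGACGTCA with its first base 79 bases before the start, and CACGTG 54 bases before it. NRP2 held neither in its window of 300 bases, 250 before and 50 after the start. Among 35116 promoters of that length, 1.85% held TGACGTCA, 7.26% held CACGTG and 24.6% held TGACG, the half-site that lies inside TGACGTCA. Among the 6 genes with a promoter sequence, VGF was the one with the full element, and NRP1, NEFL and NEFM were not searched. The half-site alone stood at the nearest starts of NFATC2 (1 match) and PKIB (3 matches).

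CACGTG was also found at the nearest starts of UGT8 and TRABD2A, a search added after the sequences had been seen. The stretches of 46 bases below carry it in capitals, at chr7:101165598-101165643 (minus) for VGF, chr4:114598371-114598416 (plus) for UGT8 and chr2:84881149-84881194 (minus) for TRABD2A.
VGF: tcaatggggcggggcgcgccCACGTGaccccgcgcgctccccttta
UGT8: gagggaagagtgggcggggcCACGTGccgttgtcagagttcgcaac
TRABD2A: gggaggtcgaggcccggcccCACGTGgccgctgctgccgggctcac
The VGF window was 67.7% GC with 35 CpG dinucleotides, against a median of 58.7% and 14 over all promoters. At their nearest starts, TRABD2A (75.7%) and NRP2 (70.0%) had a higher GC share than VGF, and NFATC2 and PKIB (57.7% each) and UGT8 (56.3%) lay below the median of all promoters. NRP2 and TRABD2A each had 33 CpG dinucleotides, NFATC2 had 24, PKIB had 23 and UGT8 had 18.

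The RNA libraries held 18121181 to 19383963 counts in shRNF8 and 18147348 to 20006954 in shScr. RNF8 itself checked the labels, with 175, 195 and 142 counts in shRNF8 libraries 1, 2 and 3, against 561, 537 and 553 in shScr (log2 fold change -1.66, edgeR adjusted p = 0.000165). A library stood apart in each group. The counts of shScr 1 differed from those of shScr 2 and shScr 3 with a chi-square of 32.4 and 31.2 per degree of freedom, against 3.55 between shScr 2 and shScr 3, and on the first principal component it lay among the shRNF8 libraries. In the other group, shRNF8 3 differed from shRNF8 1 and shRNF8 2 with 13.95 and 11.5, against 3.005 between those 2. On that component shRNF8 3 (-23.4) lay farthest from shScr 2 (31.2) and shScr 3 (30.4). The number of calls over all genes depended on the libraries used. Without shScr 1, 12.8% of 14259 genes were called higher and 14.3% lower, and without shRNF8 3 the shares over 14287 genes were 0.119% and 0.203%. The drop was not particular to shRNF8 3, where 17 genes were called higher and 29 lower. Without shRNF8 1 there were 29 higher and 38 lower, and without shRNF8 2 there were 23 and 34. Of 14018 genes tested, 0.97% passed at an adjusted p under 0.05 as higher and 1.57% as lower, and 12.5% had every shRNF8 library above every shScr library in CPM, the counts scaled to library size by the TMM method of edgeR. All 8 measured genes of the set were of that last kind, from which nothing is read, since they were chosen on this contrast.

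The neuropilins differed in level and in size of change. NRP1 had 531, 590 and 536 counts in the shRNF8 libraries, against 397, 355 and 337 in the shScr libraries. Its mean was 29.5 ± 1.04 CPM in shRNF8 and 18.9 ± 1.72 CPM in shScr (SD, n = 3 each), 1.56-fold higher (log2 fold change 0.64, SE 0.11), the smallest change of the 8 genes. NRP2 had 163, 214 and 99 counts in the shRNF8 libraries, against 37, 41 and 44 in the shScr libraries. The mean of NRP2 was 8.398 ± 2.73 CPM in shRNF8 and 2.12 ± 0.184 CPM in shScr, 3.96-fold higher (log2 fold change 1.99, SE 0.26). Library shRNF8 3 was the lowest of its group for NRP2 and still 2.48 times the highest control library. In CPM per kilobase of exon, NRP1 remained the more abundant, at 4.99 ± 0.176 against 1.09 ± 0.353 for NRP2 in shRNF8 cells, and at 3.20 ± 0.290 against 0.274 ± 0.0238 in shScr cells.

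VGF was the most abundant gene of the set by far, and its mean CPM exceeded that of 98.4% of the genes tested. It had 13671, 15854 and 11070 counts in the shRNF8 libraries, against 6635, 5426 and 6616 in the shScr libraries. The means were 720 ± 97.2 CPM in shRNF8 and 324 ± 25.9 CPM in shScr, 2.23-fold higher (log2 fold change 1.15, SE 0.11). Every shRNF8 library lay above every control, by at least 1.81 times.

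NEFL, the light neurofilament chain, had 757, 766 and 646 counts in the shRNF8 libraries, against 414, 367 and 436 in the shScr libraries. This was 38.6 ± 2.21 CPM in shRNF8 and 21.1 ± 1.11 CPM in shScr, 1.83-fold higher (log2 fold change 0.87, SE 0.10), with the smallest SD within groups of the 8 genes on the log2 scale. NEFM, the medium chain encoded next to it, had 1, 0 and 0 counts in the shRNF8 libraries and 0, 0 and 0 in the shScr libraries. NEFM was thus under the floor of 3 counts in both groups, no fold is given for it, and the 2 chains were not detected together in these cells.

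UGT8, TRABD2A, NFATC2 and PKIB were low to moderate in level and at least 2.52-fold higher in shRNF8 cells. UGT8 had 140, 157 and 132 counts in the shRNF8 libraries, against 69, 57 and 48 in the shScr libraries, or 7.63 ± 0.363 CPM in shRNF8 and 3.02 ± 0.565 CPM in shScr (2.52-fold, log2 fold change 1.33, SE 0.19). TRABD2A had 394, 348 and 358 counts in the shRNF8 libraries, against 126, 150 and 125 in the shScr libraries, or 19.6 ± 1.62 CPM in shRNF8 and 6.98 ± 0.995 CPM in shScr (2.81-fold, log2 fold change 1.49, SE 0.15). Within each of the 2 genes the groups were well apart, with the lowest shRNF8 library over 2 times the highest control. NFATC2 had 119, 127 and 124 counts in the shRNF8 libraries, against 38, 36 and 32 in the shScr libraries, or 6.60 ± 0.302 CPM in shRNF8 and 1.84 ± 0.193 CPM in shScr (3.57-fold, log2 fold change 1.84, SE 0.20). Its lowest shRNF8 library was 3.24 times the highest control, the widest gap of the 8 genes. PKIB had 198, 167 and 233 counts in the shRNF8 libraries, against 81, 79 and 45 in the shScr libraries, or 10.7 ± 2.24 CPM in shRNF8 and 3.58 ± 1.13 CPM in shScr (2.99-fold, log2 fold change 1.58, SE 0.25). PKIB had the largest SD within groups of the 8 genes on the log2 scale, and its low control was shScr 3.

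**Figure D1:**
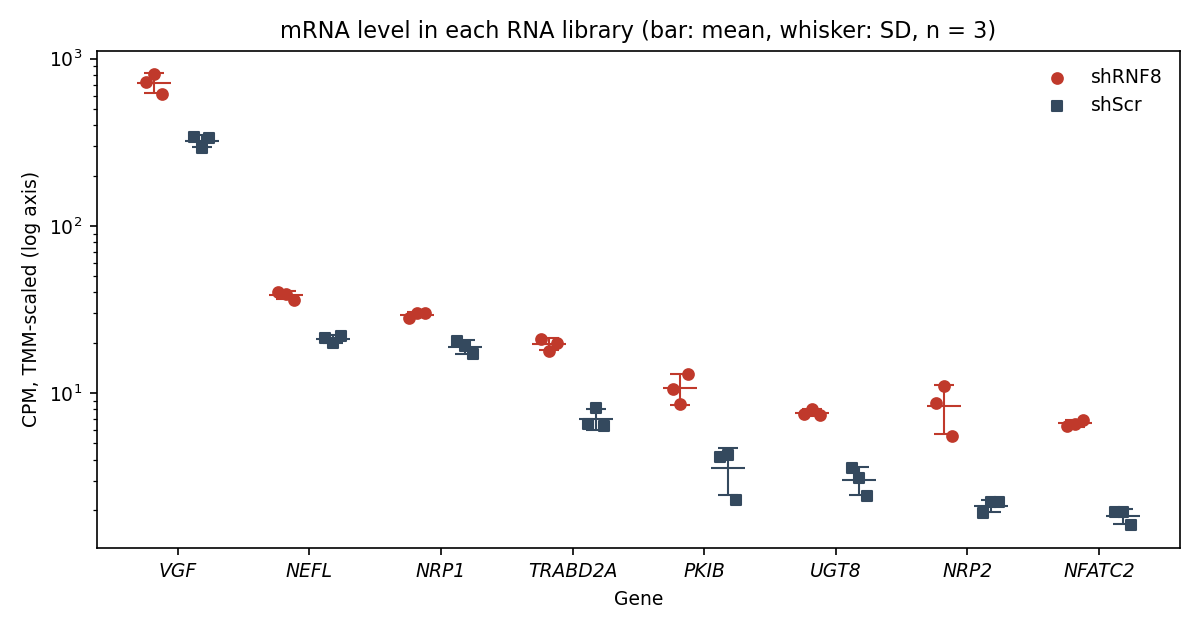
mRNA level of the 8 measured genes in each RNA library, in TMM-scaled CPM on a log axis, with shRNF8 libraries as circles and shScr libraries as squares, and the mean and SD of each group. VGF stands alone at 720 CPM in shRNF8 and 324 CPM in shScr, and the groups do not overlap for any of the 8 genes.

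Per kilobase of exon, the order in shRNF8 cells was VGF (282 CPM per kilobase), NEFL (10.0), NRP1 (4.99), TRABD2A (4.57), PKIB (4.45), UGT8 (2.23), NRP2 (1.09) and NFATC2 (0.846). The SDs of NRP1, TRABD2A and PKIB in shRNF8 cells (0.176, 0.378 and 0.929) were about as large as the steps between them, and those 3 neighbours did not differ beyond their spread. Nor did NRP2 and NFATC2, at the low end, with SDs of 0.353 and 0.0388. In shScr cells the order was VGF (127), NEFL (5.49), NRP1 (3.20), TRABD2A (1.63), PKIB (1.49), UGT8 (0.885), NRP2 (0.274) and NFATC2 (0.236), the same sequence of genes. By log2 fold change among 14018 genes, NRP2 ranked 9th, NFATC2 16th, PKIB 28th, TRABD2A 34th, UGT8 56th, VGF 80th, NEFL 190th and NRP1 388th from the top. Without shScr 1, the log2 fold changes were 0.70 for NRP1, 1.92 for NRP2, 1.20 for VGF, 0.88 for NEFL, 1.47 for UGT8, 1.44 for TRABD2A, 1.89 for NFATC2 and 1.71 for PKIB. Without shRNF8 3 they were 0.63 for NRP1, 2.21 for NRP2, 1.26 for VGF, 0.92 for NEFL, 1.36 for UGT8, 1.48 for TRABD2A, 1.80 for NFATC2 and 1.42 for PKIB. That the 8 genes remained higher without either library is no support. They were chosen on this contrast, and every shRNF8 library lay above every shScr library.

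Some libraries were the lowest or highest of their group for several of the genes. The share of all tested genes with the same order was not taken, so nothing is read from it. Library shRNF8 3 was the lowest of its group for NRP2, VGF, NEFL and UGT8, and shRNF8 2 was the highest for NRP1, NRP2, VGF and UGT8. Library shScr 3 was the lowest control for NRP1, UGT8, TRABD2A, NFATC2 and PKIB. Over the 6 libraries, genes with a mean of at least 5 CPM were ranked by Pearson's r of log2 CPM with each gene, a description to which the group difference and the deviations within groups both contribute. UGT8 and NRP1 were within each other's 3 closest genes (r = 0.9969), and EOGT was among the closest of both. The closest genes were GNB1, CGN and MLLT10 for NRP2, TRIM37, PLEKHG4 and TIAM1 for VGF, and CFLAR, ZNF136 and MN1 for NEFL. For TRABD2A they were ARMCX5, PRKD1 and SAMHD1, for NFATC2 ARMCX5, PIK3R3 and LINC00667, and for PKIB MOB1A, ITCH and YTHDC2. The r values of the genes named here were at least 0.9905.

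With all 6 libraries, most partners of the 8 genes in their pathways did not pass the test, and far more were called once shScr 1 was left out. The 10 lists of related genes held 212 genes, of which 176 were tested. Of these, 2 passed as higher (1.14%) and 3 as lower (1.70%), close to the 0.97% and 1.57% over all genes, and their median log2 fold change was -0.09, against -0.0048 over all genes tested. The lists were written with earlier results of these data known. Without shScr 1, 19 of 180 list genes tested were called higher (10.6%, against 12.8% of all genes) and 46 lower (25.6%, against 14.3% of all genes), so the lower share no longer lay close to that of all genes. Without shRNF8 3, 0 were called higher and 1 lower, and without shRNF8 1 or shRNF8 2, 0 were called in either direction. The counts per list without shScr 1 stand beside each list below.

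Of 25 semaphorins and plexins tested, 0 passed as higher and 1 as lower by edgeR, with a median log2 fold change of -0.19. At an unadjusted p under 0.05 there were 7 of them in either direction, and DESeq2 called 2. Without shScr 1, 1 was called higher and 10 lower. The one that fell was SEMA3F, a class 3 semaphorin that binds NRP2, at 17.9 ± 1.90 CPM in shRNF8 and 27.3 ± 2.13 CPM in shScr (log2 difference -0.61 ± 0.12 SE, edgeR adjusted p = 0.0290). The list of VEGF ligands and receptors had 7 genes tested, among them GIPC1, which is of neither kind. In it VEGFA fell, at 23.7, 22.7 and 20.6 CPM in the shRNF8 libraries, against 31.2, 41.5 and 46.4 CPM in the shScr libraries (log2 difference -0.83 ± 0.14 SE, edgeR adjusted p = 0.0139). The VEGF receptor gene KDR had 7.36 ± 0.572 CPM in shRNF8 and 4.63 ± 1.44 CPM in shScr and did not pass. In that list 4 genes had an unadjusted p under 0.05 and DESeq2 called 1, and without shScr 1 there were 1 called higher and 3 lower.

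Among other neuronal genes the calls depended on the tool and on shScr 1. Of 15 cytoskeletal genes of neurons tested, edgeR called 1, 7 had an unadjusted p under 0.05 and DESeq2 called 3, and without shScr 1 edgeR called 3 higher and 7 lower. The gene called was DPYSL3, a cytosolic protein of growth cones, with 162 ± 0.969 CPM in shRNF8 and 120 ± 10.9 CPM in shScr (log2 difference 0.42 ± 0.09 SE, edgeR adjusted p = 0.0362). Several genes of that list were abundant and did not pass by edgeR. The neuronal tubulin gene TUBB3 had 448 ± 20.8 CPM in shRNF8 and 299.96 ± 78.6 CPM in shScr, the microtubule protein gene MAP1B had 191 ± 9.33 CPM in shRNF8 and 240.0 ± 41.6 CPM in shScr, and the kinesin gene KIF1A had 98.9 ± 13.0 CPM in shRNF8 and 110.4 ± 26.8 CPM in shScr. The heavy neurofilament gene NEFH and the neuronal genes STMN2 and GAP43 were at or near 0 in every library. Of 14 granins and dense-core granule genes tested, the class to which VGF belongs, edgeR called 0 in either direction (5 at an unadjusted p under 0.05, and 1 called by DESeq2), and the median log2 fold change was -0.29. Without shScr 1, 2 were called higher and 5 lower. CHGB had 3.504 ± 0.760 CPM in shRNF8 and 4.63 ± 0.329 CPM in shScr, and SCG2 had 0.754 ± 0.227 CPM in shRNF8 and 0.522 ± 0.186 CPM in shScr. Of 8 neurotrophins and their receptors, edgeR called 0 (3 at an unadjusted p under 0.05, and 0 by DESeq2), with a median log2 fold change of -0.10, and 0 higher and 1 lower without shScr 1. Of 13 genes for REST, a repressor of neuronal genes, and its corepressors, edgeR called 0 (2 at an unadjusted p under 0.05, and 0 by DESeq2), with a median of -0.07, and 0 higher and 2 lower without shScr 1.

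Of 24 genes of protein kinase A and CREB signalling, to which the PKIB product and the VGF promoter element belong, edgeR called 0 (4 at an unadjusted p under 0.05, and 1 called by DESeq2), with a median log2 fold change of -0.02, and 3 higher and 4 lower without shScr 1. Of 17 genes of NFAT and calcineurin, edgeR called 0 (6 at an unadjusted p under 0.05, and 0 by DESeq2), with a median of -0.07, and 2 higher and 5 lower without shScr 1. Of 23 sphingolipid enzymes, edgeR called 1 (9 at an unadjusted p under 0.05, and 1 called by DESeq2), with 6 higher and 3 lower without shScr 1. The glucosylceramide synthase gene UGCG fell, at 118 ± 7.05 CPM in shRNF8 and 182 ± 11.8 CPM in shScr (log2 difference -0.62 ± 0.09 SE, edgeR adjusted p = 0.00646). UGCG and UGT8 add different sugars to the same substrate, ceramide, and their mRNAs differed in opposite directions. Of 30 genes of WNT secretion, receptors and antagonists, edgeR called 1 (5 at an unadjusted p under 0.05, and 2 called by DESeq2), with 1 higher and 6 lower without shScr 1. The WNT receptor gene FZD6 rose, at 77.5 ± 4.71 CPM in shRNF8 and 54.5 ± 1.62 CPM in shScr (log2 difference 0.51 ± 0.09 SE, edgeR adjusted p = 0.0159). Calls of single list genes depended on the libraries used. SEMA3F, DPYSL3 and FZD6 did not pass without any one of the 5 libraries other than shScr 1, with edgeR adjusted p up to 0.144, 0.188 and 0.0892. VEGFA did not pass without shScr 3 or any one shRNF8 library (adjusted p up to 0.137), nor UGCG without shRNF8 1 or shRNF8 2 (adjusted p up to 0.0698).

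**Figure D2:**
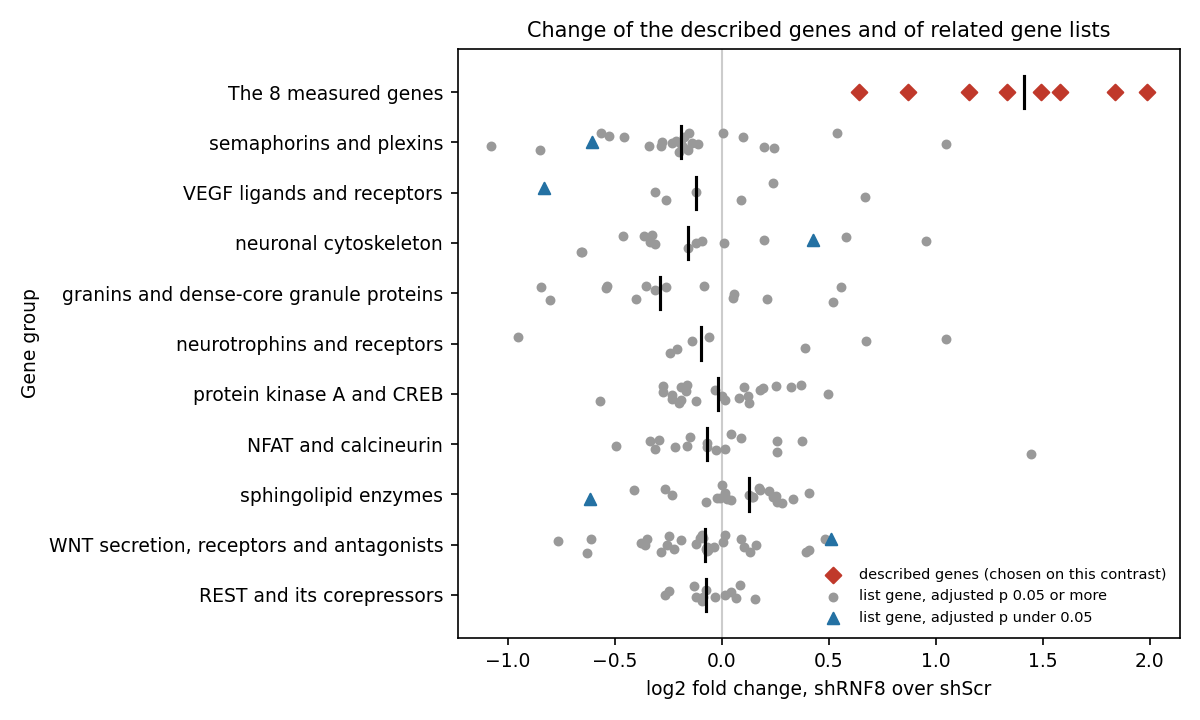
Log2 fold change, shRNF8 over shScr, of the 8 measured genes (diamonds, chosen on this contrast) and of the tested genes of 10 related lists, with vertical bars for medians. Triangles mark the 5 list genes that passed at an adjusted p under 0.05, and the list medians lie between -0.29 and 0.13.

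Markers of the line and of other cell types were read beside these values. All 6 markers of mesenchymal basal breast cancer lines (VIM, CD44, SPARC, AXL, FN1 and CAV1) were present, with a summed level of 2008 to 2194 CPM in shRNF8 and 1890 to 2156 CPM in shScr. The 10 neuron markers summed to 19.2 to 23.3 CPM in shRNF8 and 17.7 to 27.8 CPM in shScr, with STMN2 at 0. The 6 endothelial markers, of which KDR was the one above 1 CPM, summed to 7.16 to 8.66 CPM in shRNF8 and 5.06 to 6.54 CPM in shScr, with CDH5 and TEK at 0. Glial markers summed to 54.4 to 60.0 CPM in shRNF8 and 49.5 to 65.7 CPM in shScr, with S100B at 0. Immune markers, led by CD68, summed to 152 to 168 CPM in shRNF8 and 124 to 143 CPM in shScr, with CD3E at 0. Luminal markers, led by KRT8, summed to 1062 to 1109 CPM in shRNF8 and 865 to 1453 CPM in shScr, with ESR1, PGR, CDH1 and EPCAM under 1 CPM on average. Of 26 markers tested in the 6 lists, edgeR called 0 (6 at an unadjusted p under 0.05, and 0 by DESeq2), and of 28 tested without shScr 1 it called 4 higher and 4 lower. In bulk RNA, fewer cells of a type and less RNA per cell cannot be told apart.

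The genes were named for their RNA and not for S9.6 peaks, though S9.6 results of the series were known by then. The S9.6 peaks differed between libraries in number and in length. The shRNF8 libraries 1 to 4 held 32358, 34103, 50963 and 48546 peaks, and the 2 shScr libraries held 49277 and 38659. Peaks covered 39.5, 34.4, 83.5 and 79.0 Mb in the shRNF8 libraries, against 47.6 and 43.4 Mb in the shScr libraries, so shRNF8 3 and shRNF8 4 stood apart, with 1341 and 1256 peaks over 10000 bp against 182 to 294 in the other S9.6 libraries. The peak names inside the lists of those 2 libraries carry the name stems of shRNF8 1 and shRNF8 2, while the peaks differ. Results are therefore read library by library. A gene was counted as having a peak when one lay over the gene or within 1000 bp of it. Of 24983 genes with 1 locus, 53.5% had a peak in at least 1 of the 6 S9.6 libraries, 27.8% had one in all 6, 1.68% were covered over their whole length in all 6, and 0.452% had a peak in every shRNF8 library and in no shScr library.

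Of the 9 genes, 4 had a peak in at least 1 S9.6 library and 1, VGF, had one in all 6. None had a peak in every shRNF8 library and in no shScr library. VGF (chr7:101162509-101165571, minus strand) lay wholly inside 1 long peak in every S9.6 library. That peak was 10415, 10914, 22997 and 21915 bp long in shRNF8 libraries 1 to 4, against 10396 and 10581 bp in the shScr libraries. It was among the longest 0.381% to 0.804% of its own library's peaks in all 6. Its greater length in shRNF8 3 and shRNF8 4 went with a larger share of peaks over 10000 bp there. That share was 2.63% and 2.59%, against 0.473% to 0.909% in the other S9.6 libraries. The median peak differed less, at 656 and 654 bp against 520 to 599 bp.

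The part covered in all 6 libraries was chr7:101161135-101170429, 9295 bp. It takes in VGF, the promoter printed above, the sequence upstream of it and the 3′ end of AP1S1 (chr7:101154405-101161276). AP1S1, read toward VGF from the other strand, ends 1233 bp from the end of VGF. NAT16 lies 4922 bp upstream of the VGF start. The domain thus reached past the 3′ end of VGF as well as upstream. In shRNF8 3 and shRNF8 4 the peak spanned all of AP1S1. In every S9.6 library other than shRNF8 1 it also reached into NAT16. The peaks carry no strand, so hybrids of VGF RNA cannot be told apart from those of neighbouring or antisense RNA. AP1S1 had 113 ± 4.17 CPM in shRNF8 and 123 ± 18.3 CPM in shScr, and NAT16 had 0.901 ± 0.300 CPM in shRNF8 and 0.515 ± 0.343 CPM in shScr, and neither passed the test in RNA (edgeR adjusted p = 0.580 and 0.395). Without shScr 1, AP1S1 passed as lower (log2 fold change -0.24, edgeR adjusted p = 0.0323), and NAT16 did not pass (adjusted p = 0.451). The authors' fold of the VGF peak over local background was 49.96, 23.25, 19.75 and 10.98 in the shRNF8 lists, against 26.27 and 25.0 in the shScr lists. Its -log10 q was 210, 89.9, 105 and 64.4 in the shRNF8 lists, against 119 and 88.8 in the shScr lists. These are the authors' values of single peaks and rank it within each list. The summit lay inside an exon of VGF in every library, 960, 962, 1114 and 960 bp downstream of the gene start in the shRNF8 libraries, and 959 and 1195 bp downstream in the shScr libraries.

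**Figure D3:**
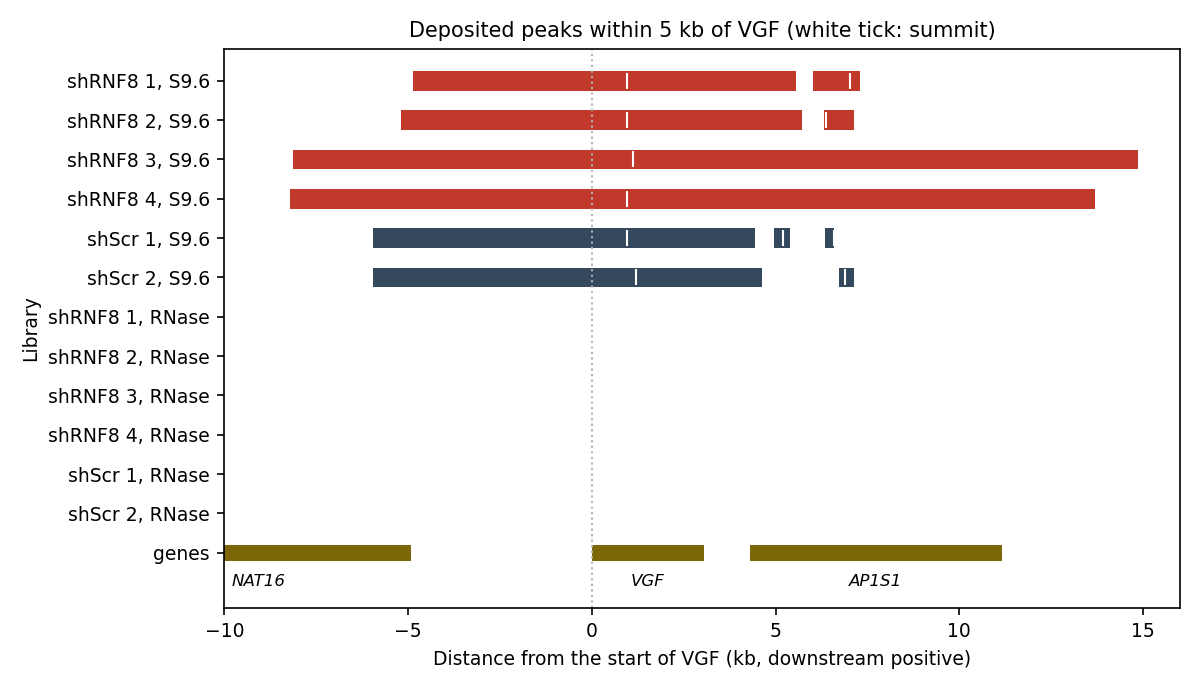
Deposited peaks within 5000 bp of VGF in each S9.6 and RNase-treated library, as bars along the distance from the VGF start in kilobases, with white ticks at summits and the genes of the region in the bottom row. A single peak spans VGF in all 6 S9.6 libraries, it is longest in shRNF8 3 and shRNF8 4 (22997 and 21915 bp), and the RNase rows are empty.

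None of the 9 genes had a peak within 5000 bp in any of the 6 RNase-treated libraries, which held 254 to 1912 peaks (shRNF8) and 731 to 997 peaks (shScr) in all. The share of all genes without such a peak was not taken, so nothing about the 9 genes is read from it. Covered length was compared between hairpins as covered bp per Mb of the total peak length of a library (ppm). The window was the gene with 1000 bp on either side. A two-sided exact permutation test over 15 splits, whose smallest p is 0.0667, was run for the 4 genes with a peak in that window. VGF had 128, 147, 60.6 and 64.1 ppm in the shRNF8 libraries, against 106 and 117 ppm in the shScr libraries (difference -11.6 ppm, exact p = 0.867). Since its window of 5063 bp was covered in full in all 6, this measure had no room to rise and follows the library totals alone. A hairpin difference in hybrid length or amount at VGF was thus not detectable with it.

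Peaks at NRP1, NEFL and TRABD2A were found in 1 or 2 libraries each. NRP1 (chr10:33177491-33334905, minus strand) had peaks just upstream of its start in shRNF8 3 (chr10:33335000-33337104, 2105 bp, authors' fold 5.08) and shRNF8 4 (chr10:33335048-33336005, 958 bp, fold 6.05), and none in shRNF8 1, shRNF8 2 or either shScr library (exact p = 0.467). A further one in shRNF8 4, at chr10:33336340-33336999, lay more than 1000 bp upstream. The 2 libraries with NRP1 peaks are the 2 with the longest total peak length, and the part of that in the result was not tested. Without those 2 libraries NRP1 had no peak. NEFL had 2 peaks in shRNF8 1, of 538 bp at the start and 407 bp in an exon, and none in the other 5 libraries (exact p = 1.0). TRABD2A had 1 peak of 320 bp in shScr 1, in an exon near the far end of the gene (fold 5.93), and none elsewhere (exact p = 0.333). With peaks in 1 library, the p of NEFL and of TRABD2A was fixed by the group that held that library, whatever the length.

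NRP2, NEFM, UGT8, NFATC2 and PKIB had no peak within 5000 bp in any S9.6 library, and so none within the 1000 bp used for the shares below. In particular, the 2 genes with the largest fold changes in RNA, NRP2 and NFATC2, were without one in all 6. Peaks were more frequent at abundant mRNAs: of genes at 1 to 10 CPM, the class of NRP2, UGT8, NFATC2 and PKIB, 60.4% had a peak in at least 1 library, against 96.3% of genes at 100 CPM and more, the class of VGF. Among 1056 genes at 1 to 10 CPM and of at least 50000 bp, a description that all 4 of those genes meet (78592 to 254457 bp), 53.2% had no peak in any of the 6 libraries. Of 227 genes at 100 CPM and more and of at most 5000 bp, as VGF is (3063 bp), 81.1% had a peak in all 6 and 20.7% were covered over their whole length in all 6. The positions of the genes without peaks were chr2:205682500-205798133 (NRP2, plus), chr4:114598455-114677046 (UGT8, plus), chr20:51386957-51562831 (NFATC2, minus) and chr6:122471917-122726373 (PKIB, plus), and TRABD2A lies at chr2:84821667-84881245 (minus). NEFL lies at chr8:24950956-24956869 (minus) and NEFM at chr8:24913761-24919093 (plus).

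**Figure D4:**
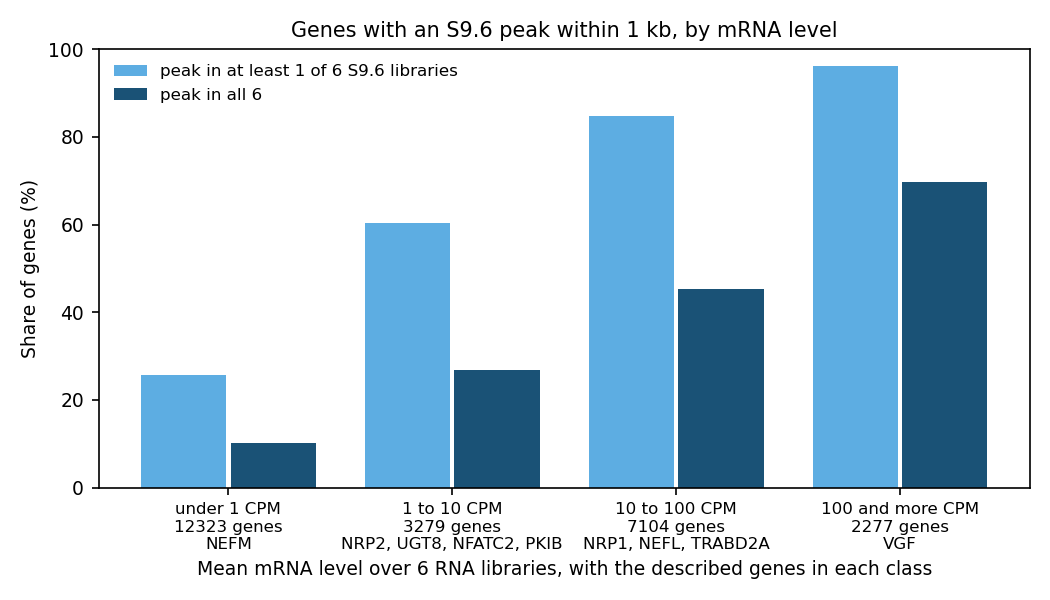
Share of genes with an S9.6 peak over the gene or within 1000 bp, in at least 1 of 6 libraries and in all 6, by class of mean CPM over the 6 RNA libraries. The share with a peak in all 6 runs from 10.2% under 1 CPM to 69.7% at 100 CPM and more, and the described genes of each class are named under it.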

How the data were processed

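The authors deposited raw fragment counts per gene for 26485 genes, with gene positions and summed exon length, made with featureCounts on an hg38 annotation, per the file headers. Their command names no strand setting, so antisense and overlapping genes could share reads, and NEFL, UGT8 and NFATC2 each overlap an annotated miRNA that shares no exon base with them. Each DRIP-seq library has a peak list of its own, in which the authors give a fold over local background (a linear ratio) together with the -log10 of the p-value and q-value of each peak. The submitters' processing notes name Trim Galore 0.6.6, STAR 2.7.9a, Bowtie2 2.2.6, SAMtools 1.14, Picard 2.10.9, Subread 2.0.1, MACS2 2.2.7.1 and deepTools 3.5.1, with no roles. DRIP read depth is unknown, the labels give the RNase as a code, and the 3 input samples were not used here.

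Counts were analysed with edgeR 4.0.16 in R 4.3.3 (filterByExpr, TMM, glmQLFit with robust settings, glmQLFTest, Benjamini-Hochberg over 14018 genes), with DESeq2 1.42.0 as an alternative. CPM values are TMM-scaled, and CPM per kilobase divides them by the deposited exon length. Peaks on chromosomes 1 to 22 and X were counted over each gene with 1000 bp on either side, in Python 3.11.15 with pandas 2.3.3. The steps were tested on simulated data. Groups and replicate numbers come from the sample titles. All 9 genes are named, with each list gene called, RNF8, and for each tested gene of the set the 3 genes of at least 5 CPM with the highest Pearson's r, of which 1 is not reported here. KDR, TUBB3, MAP1B, KIF1A, CHGB, SCG2, NEFH, STMN2, GAP43, AP1S1 and NAT16 were named after their values were seen, and the peak length at VGF, the CACGTG search and the classes of gene length were added then. The genes and lists were chosen with earlier results of these data known. Promoter sequences are from RefSeq (GRCh38.p14).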

Additional observations from a re-analysis of the deposited data

Results flagged for a closer look

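The S9.6 covered length over NEFL was 23.9 ppm in shRNF8 1 and 0 in the other 3 shRNF8 libraries, which set that library apart by the gap to the rest of its group. With 3 values at 0, any peak in a single library of the group gives such a gap, so it says no more than that NEFL had peaks in shRNF8 1 and none in the other S9.6 libraries.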

How the results depend on the processing

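The log2 fold changes of the 8 measured genes stayed above 0 under RLE size factors, library size only, no filter, DESeq2, the replicate block and with each library left out. Since the genes were chosen on this contrast and their groups do not overlap, that sign was set beforehand and nothing is read from it. Genome-wide counts moved more. Genes called higher, 136 in the fit described, were 267 without a filter, 324 by DESeq2 and 205 with the replicate block, and 17 to 1823 with 1 library left out. Genes called lower, 220, were 381 without a filter, 535 by DESeq2, 296 with the replicate block and 29 to 2042 with 1 library left out. The counts in both directions were highest without shScr 1 and lowest without shRNF8 3. List genes called higher, 2, were 6 by DESeq2, 5 with the replicate block and 0 to 19 with 1 library left out, and those called lower, 3, were 5 without a filter, 5 by DESeq2 and 0 to 46. Deviations of samples with the same number had correlations of -0.05, 0.11 and -0.23 for numbers 1 to 3. With 3 libraries in each group, these values cannot show whether the numbers pair the samples. The S9.6 difference at VGF was -11.6 ppm and turned to 16.6 ppm with a window of 5000 bp, and with 1 library left out it ran from -27.3 to 1.56 ppm, above 0 without shRNF8 3 (1.56) or shRNF8 4 (0.41). Its exact p did not fall below 0.4 in any of these, and the smallest p of the design, 0.0667, cannot pass 0.05.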
